A study of Mus musculus with 23 samples.

Results

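The orbitofrontal cortex (OFC) of stressed mice that had received the ZBTB7A vector was set against that of unstressed mice that had received the GFP vector, so that both the vector and the stress differed between the 2 groups. These 10 libraries, 5 in each group, were chosen by the group names in the libraries' titles, from 23 libraries in 4 groups. ZBTB7A stress mice carried an AAV6 vector with ZBTB7A behind the Gfap promoter, injected into the OFC on day 0, and met a subthreshold social defeat on day 21. GFP control mice carried AAV6-GFAP-GFP and were labelled as controls in the stress condition. ZBTB7A control (n = 5) and GFP stress (n = 8) carry 1 of the 2 factors each and are used here to place the outer groups. All mice were wild-type C57BL/6J males, with an age given as 8 weeks, and all went through behavioural tests (social interaction, preference for sucrose, forced swimming) from day 22 to day 27 before the infected tissue was dissected on day 28. One label field names the defeat for every mouse, while the field for the stress condition separates control from stress, and the groups follow the stress condition. The vector was designed to act in astrocytes through the Gfap promoter, which was not checked here. The RNA was polyadenylated RNA of whole dissected tissue, so that fewer cells of a type and less RNA per cell cannot be told apart. The labels do not say whether each library is a separate mouse, so p-values measure the spread between these libraries.

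ZBTB7A is a zinc-finger transcription factor of the BTB family, known as a repressor and, in other tissues, for its part in blood cell fate, glycolysis and the access of NF-kB to its target genes. Astrocytes clear glutamate through the transporters Slc1a2 and Slc1a3, turn it into glutamine through Glul, and respond to injury by raising Gfap, Serpina3n and Lcn2. Subthreshold social defeat is a brief exposure to an aggressor that by itself leaves most mice without a lasting change in social behaviour, and is used to ask whether a second factor makes them susceptible.

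Ttr, transthyretin, the thyroid hormone carrier that the choroid plexus secretes, stood at 4.45 to 27.1 normalized counts in ZBTB7A stress and at 194 to 7567 in GFP control, and was the only gene to pass an adjusted threshold, in DESeq2 and not in limma or edgeR. Its median in GFP stress was also low, at 14.1. Differences of most other genes were small. The groups did not overlap in 68 genes, 0.415% of those tested. Among these, Tmc3, a transmembrane channel-like protein, stood 1.59-fold higher, while Slc38a2, a glutamine transporter, Kcnh5, a potassium channel, and Hspa5, the chaperone BiP, stood at folds of 0.802, 0.648 and 0.875. These are examples picked from the 68, which this same contrast chose, and are not those of smallest p. None of them passed an adjusted threshold. Marker genes of astrocytes, cortical neurons, microglia and myelin had median log2 fold changes between -0.07 and 0.13. Marker genes of the choroid plexus (median -0.72) and of striatal neurons (median 0.48) lay farthest from 0. Without GFP control 1 and 10, a choice made after seeing the data, the choroid plexus median was -0.04 and the striatal median 0.047.

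No gene of 16385 tested passed an adjusted p of 0.05 between ZBTB7A stress and GFP control in limma (0%; the smallest adjusted p was 0.721), and none passed in edgeR's quasi-likelihood test of the recovered reads. DESeq2 passed 1 gene, Ttr, which also has the smallest adjusted p in limma. An unadjusted p under 0.05 was reached by 333 genes in limma (2.03% of those tested), 170 higher (1.04%) and 163 lower (0.995%), by 419 in edgeR and by 431 in DESeq2. If no gene differed, 819 of the tested genes would be expected under this threshold, more than any of these counts. The limma count lay above 819 with 3 tissue levels as covariates (880). It also did so with the choroid level as a covariate (2185), a choice made after seeing the data. In 68 genes (0.415%) all 5 values of one group lay beyond all 5 of the other, with ZBTB7A stress above in 40 (0.244%) and below in 28 (0.171%). A random split of the 10 libraries into 5 and 5 separates a gene fully with a probability of 0.00794, a larger share than 0.415%. The 95% interval of the fold change lay within 1.5-fold of no difference for 12270 genes (74.9%) and within 2-fold for 14850 (90.6%), and its bounds lay a median of 0.24 from the estimate on the log2 scale. Depth was 30.2 ± 13.4 M recovered reads in ZBTB7A stress and 25.5 ± 8.48 M in GFP control (SD, n = 5 each), with 12.5 to 51.9 M over all 23 libraries. Across the tested genes, which are not independent replicates, pairs of libraries from different groups correlated at 0.972 to 0.992 on the log2 scale, and pairs of the same group at 0.969 to 0.991.

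The single-factor groups stood on either side of this comparison in an uneven way. An unadjusted limma p under 0.05 was reached by 284 genes (1.73%) for ZBTB7A control against GFP control, by 272 (1.66%) for ZBTB7A stress against ZBTB7A control, by 1839 (11.2%) for GFP stress against GFP control and by 2635 (16.1%) for ZBTB7A stress against GFP stress. The outer groups of the design differed in fewer genes at this threshold than either of them did from GFP stress, the group with 8 libraries. Each comparison shares a group with another, so the counts are not independent, and 0 genes passed the adjusted threshold in any of the 4. The limma interaction, which asks whether the 2 factors together depart from the sum of each alone, had 1216 genes at an unadjusted p under 0.05 (7.42%) and 0 at an adjusted p under 0.05.

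Reads counted on Zbtb7a, the mouse gene that the vector is named after, were not more abundant in the libraries labelled ZBTB7A stress. Its normalized counts were 3899, 3887, 3721, 3743 and 3470.1 in ZBTB7A stress 7, 9, 17, 25 and 26, against 3033, 3507, 4204, 4666 and 3762 in GFP control 1, 2, 10, 11 and 19, where the numbers are those of the titles. The 5 ZBTB7A stress libraries lay inside the range of GFP control, which spread more widely. The means were 3744 ± 173 and 3834 ± 629 (SD, n = 5 each), a log2 difference of -0.02 ± 0.08 (SE) with an exact two-sided permutation p = 0.889. The 95% interval of the fold was 0.874 to 1.11. The title numbers run through the groups 3 times, and the difference was 0.26, -0.25 and -0.06 within these runs, so its sign depended on the run. Run 2 holds only ZBTB7A stress 17 of that group, and run 3 only GFP control 19 of that group. Every difference within those runs thus rests on 1 library on one side. Whether the vector carried a human or mouse coding sequence, and which part of its RNA a count on the mouse gene could see, is not given in the sources used here. The count of this gene thus gives no check of the vector, and ZBTB7A stress stands throughout for the libraries labelled so.

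Gfap, the intermediate filament of astrocytes whose promoter drives the vector, had 11733, 14078, 19524, 7817 and 6598 normalized counts in the 5 ZBTB7A stress libraries, against 7059.9, 11271, 26388, 4329.6 and 8411 in the 5 GFP control libraries. The ranges overlapped, with both the highest and the lowest value in GFP control. The log2 difference was 0.22 ± 0.46 (SE), with an exact permutation p = 0.683. It turned to -0.06 without GFP control 11.

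**Figure D1:**
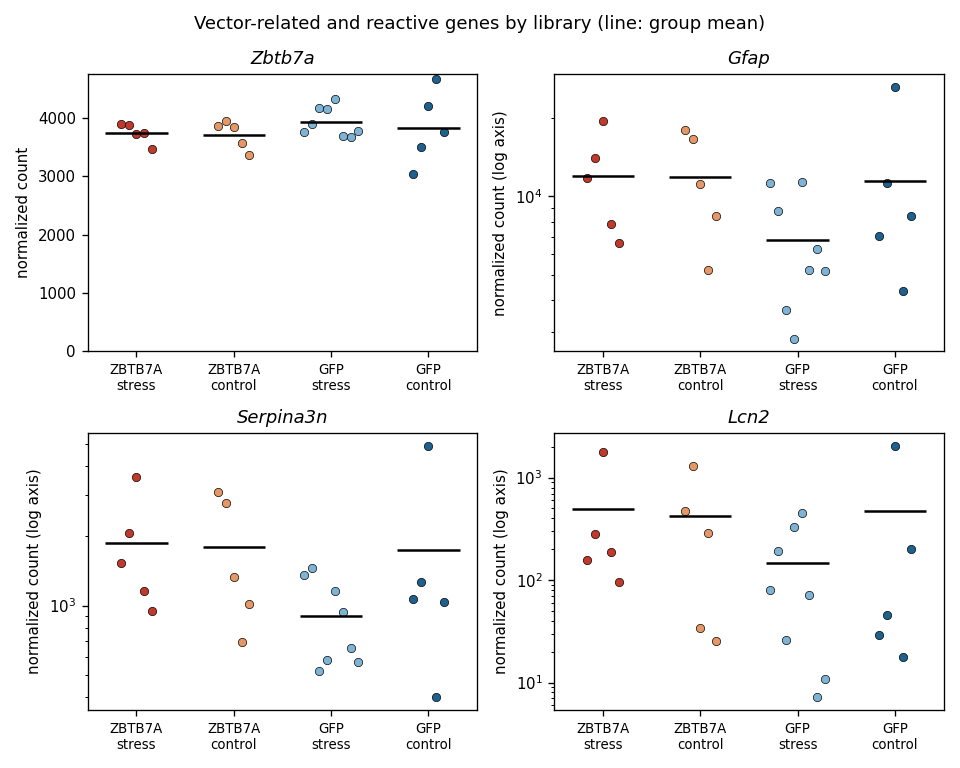
Normalized counts of Zbtb7a (linear axis), Gfap, Serpina3n and Lcn2 (log axes) in each library of the 4 groups, with a line at the arithmetic group mean. Zbtb7a averaged 3744 in ZBTB7A stress and 3834 in GFP control, and for the other genes the single highest library of all 4 groups is GFP control 10.

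Serpina3n, a protease inhibitor induced in reactive astrocytes, averaged 1863 ± 1064 in ZBTB7A stress and 1737 ± 1807 in GFP control (log2 difference 0.44 ± 0.52, SE). Lcn2, a secreted iron carrier of reactive astrocytes, had 156, 280.1, 1761, 187 and 95.4 normalized counts in ZBTB7A stress, against 29.0, 46.0, 2047, 17.8 and 200.4 in GFP control. One library in each group, ZBTB7A stress 17 and GFP control 10, stood far above the rest, and the other 8 lay between 17.8 and 280.1. The log2 difference of 1.40 ± 1.34 (SE; exact permutation p = 0.365) had a 95% interval of the fold of 0.387 to 18.0. The same 2 libraries were the highest of their groups for Gfap and Serpina3n.

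The genes of glutamate handling lay close to level. Slc1a2, the main glutamate transporter, averaged 56382 ± 2245 in ZBTB7A stress and 55088 ± 4369 in GFP control, a fold of 1.03 (95% interval 0.921 to 1.14). Slc1a3 had a fold of 1.02 (0.885 to 1.17) and Glul, glutamine synthetase, of 0.958 (0.848 to 1.08). Aqp4, the water channel of astrocyte endfeet, averaged 2552 ± 613 in ZBTB7A stress and 2917 ± 721 in GFP control (log2 difference -0.18 ± 0.19, SE). Of 24 homeostatic astrocyte genes tested, none passed, 10 lay above 0 and the median log2 fold change was -0.05, beside 47.4% above 0 and a median of -0.01 over all tested genes. The member farthest below 0 was Gjb6, the astrocytic connexin 30, with 805, 784, 932, 848 and 821 normalized counts in ZBTB7A stress against 925, 1421, 907, 877 and 1084 in GFP control. Its groups overlapped through the 932 of ZBTB7A stress 17, and its log2 difference was -0.29 ± 0.14 (SE) at an unadjusted limma p of 0.0431, which became 0.181 without GFP control 2.

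Of 25 reactive astrocyte genes, 18 lay above 0 with a median of 0.13, and none passed. Ptx3, a secreted pentraxin of the innate response, was the farthest, at 33.1, 28.01, 118, 21.3 and 9.38 normalized counts in ZBTB7A stress against 7.56, 12.1, 40.0, 3.87 and 7.06 in GFP control. Each group held 1 high library, ZBTB7A stress 17 and GFP control 10. The log2 difference was 1.45 ± 0.59 (SE) at an unadjusted limma p of 0.0219, with an exact permutation p = 0.103. It was 0.96 without ZBTB7A stress 17. As a level, the mean of the members' log2 values centred over the 23 libraries, the list stood at 0.32 ± 0.56 in ZBTB7A stress and 0.06 ± 0.82 in GFP control (SD, n = 5 each). Within the number runs the level difference was 0.42, 1.03 and -0.25.

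The 12 genes of smallest p that were higher in ZBTB7A stress, among genes with a symbol and a mean of 50 or more, did not pass the adjusted threshold, and their folds were small, from 1.09 to 1.59. In 5 of the 12 the groups did not overlap (Zscan2, Tmc3, Zfp39, Btbd19 and Mrgbp), beside 0.244% of all tested genes separated in this direction. All 12 kept their direction when any one of the 10 libraries was left out, and 11 had it in each number run, with Slc30a1 the exception. The genes were chosen by this contrast, which favours separated groups and a steady direction, so these are descriptions.

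The largest of these differences belonged to Tmc3, a transmembrane channel-like protein. It had 78.2, 69.2, 63.4, 65.8 and 86.0 normalized counts in the ZBTB7A stress libraries, against 44.7, 40.4, 54.6, 47.2 and 39.5 in the GFP control libraries. All 5 ZBTB7A stress values lay above the highest GFP control value, and the fold was 1.59 with a 95% interval of 1.18 to 2.14. Zscan2, a zinc-finger protein of the SCAN family, had 179, 196, 208, 175 and 195 in ZBTB7A stress, against 154, 161, 163, 165 and 162 in GFP control. The 5 GFP control values lay between 154 and 165, below all ZBTB7A stress values, and the fold was 1.18 (1.06 to 1.31).

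Btbd19, a BTB-domain protein, averaged 185 ± 19.8 in ZBTB7A stress and 146 ± 10.4 in GFP control, and its lowest ZBTB7A stress value of 164 lay just above the highest GFP control value of 162. Mrgbp, a subunit of the TIP60 histone acetyltransferase complex, averaged 218 ± 21.7 in ZBTB7A stress and 182 ± 8.32 in GFP control. Zfp39, a zinc-finger protein, averaged 259 ± 13.7 in ZBTB7A stress and 219 ± 23.9 in GFP control. Zfp599, another zinc-finger protein, overlapped between the groups at 118 ± 10.2 in ZBTB7A stress and 94.6 ± 13.1 in GFP control.

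Efnb2 encodes ephrin-B2, a membrane ligand of Eph receptors that astrocytes and vessels use in cell contact. It had 1949, 1854, 1732, 2008 and 2120.2 normalized counts in ZBTB7A stress, against 1438, 1733, 1277, 1749.6 and 1865 in GFP control. GFP control reached into the ZBTB7A stress range with 3 of its 5 libraries, and the fold was 1.21 (1.07 to 1.36), with an exact permutation p = 0.0556. Ephx2, the soluble epoxide hydrolase that inactivates epoxy fatty acids, averaged 384 ± 30.3 in ZBTB7A stress and 319 ± 35.7 in GFP control. Slc30a1, which exports zinc from the cell, averaged 961 ± 45.3 in ZBTB7A stress and 835 ± 126 in GFP control, where GFP control 1 alone stood at 1055. Fras1, an extracellular matrix protein, Tbc1d20, a Rab GTPase-activating protein, and Rad54l2, a chromatin helicase, had folds of 1.21, 1.16 and 1.09, all with overlapping groups.

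The 12 genes of smallest p that were lower are led by Ttr, with an unadjusted limma p of 4.40e-05, and were chosen by the same contrast. Their folds ran from 1.12 to 97.6 lower and their unadjusted limma p reached 0.00558. In 5 of the 12 the groups did not overlap (Ttr, Stk32b, Slc38a2, Kcnh5 and Coprs), beside 0.171% of all tested genes separated in this direction. All 12 had the same direction in each number run and with any one of the 10 libraries left out, which choosing by this contrast favours. Number runs 2 and 3 each have 1 library on one side. Ttr is described with the choroid plexus genes.

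Stk32b, a serine/threonine kinase, had the next smallest p (0.000133). Its normalized counts were 43.6, 33.0, 55.1, 38.2 and 47.4 in ZBTB7A stress, against 107, 71.0, 57.3, 81.2 and 62.1 in GFP control. The log2 difference was -0.77 ± 0.17 (SE), a fold of 0.585 (95% interval 0.460 to 0.745) and an adjusted limma p of 0.996. Both single-factor groups lay near the ZBTB7A stress mean of 43.5, at 46.0 ± 4.94 in ZBTB7A control and 50.4 ± 8.02 in GFP stress, against 75.7 ± 19.7 in GFP control.

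Slc38a2 encodes SNAT2, a transporter that takes up glutamine and other neutral amino acids. It had 2631, 2315, 2769, 2827 and 2539 normalized counts in ZBTB7A stress, against 3231, 3476, 3454, 3121 and 3022 in GFP control. Every ZBTB7A stress library lay below every GFP control library, with a fold of 0.802 (0.701 to 0.917). Kcnh5, a voltage-gated potassium channel of the EAG family, had 252, 326, 385, 365 and 270.5 in ZBTB7A stress, against 443, 416, 577, 513 and 507 in GFP control. The groups again did not overlap, and the fold was 0.648 (0.491 to 0.855). Coprs, a partner of the arginine methyltransferase PRMT5 at histones, averaged 334 ± 28.4 in ZBTB7A stress and 410.3 ± 39.6 in GFP control.

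Tmem215, a transmembrane protein, had 32.1, 42.8, 99.2, 95.1 and 18.8 normalized counts in ZBTB7A stress, against 163, 96.0, 159, 165 and 103 in GFP control. The groups overlapped only in that ZBTB7A stress 17 lay above GFP control 2, and the log2 difference of -1.46 ± 0.42 (SE) was the largest of the 12 after that of Ttr. Nog encodes noggin, a secreted inhibitor of bone morphogenetic proteins, and averaged 180.5 ± 38.9 in ZBTB7A stress and 245 ± 26.02 in GFP control. Nell1, a secreted protein with EGF-like repeats, averaged 667 ± 106 in ZBTB7A stress and 969 ± 168 in GFP control.

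Etnppl encodes an enzyme that breaks down phosphoethanolamine and is made largely by astrocytes in the brain. It had 306, 274, 263, 196 and 287 normalized counts in ZBTB7A stress, against 628, 808, 281, 263 and 617 in GFP control. GFP control split into 3 high libraries and 2, GFP control 10 and 11, that lay among the ZBTB7A stress values. Its difference was -1.30 and -1.37 on the log2 scale within number runs 1 and 3 and -0.05 within run 2, to which both of those libraries belong. The protocadherins Pcdhb3 and Pcdhb5, adhesion proteins that give neurons a surface identity, had folds of 0.790 and 0.785; their cluster holds similar copies, so reads may be shared between them. Eif1b, a translation initiation factor, had a fold of 0.890 (0.822 to 0.963).

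**Figure D2:**
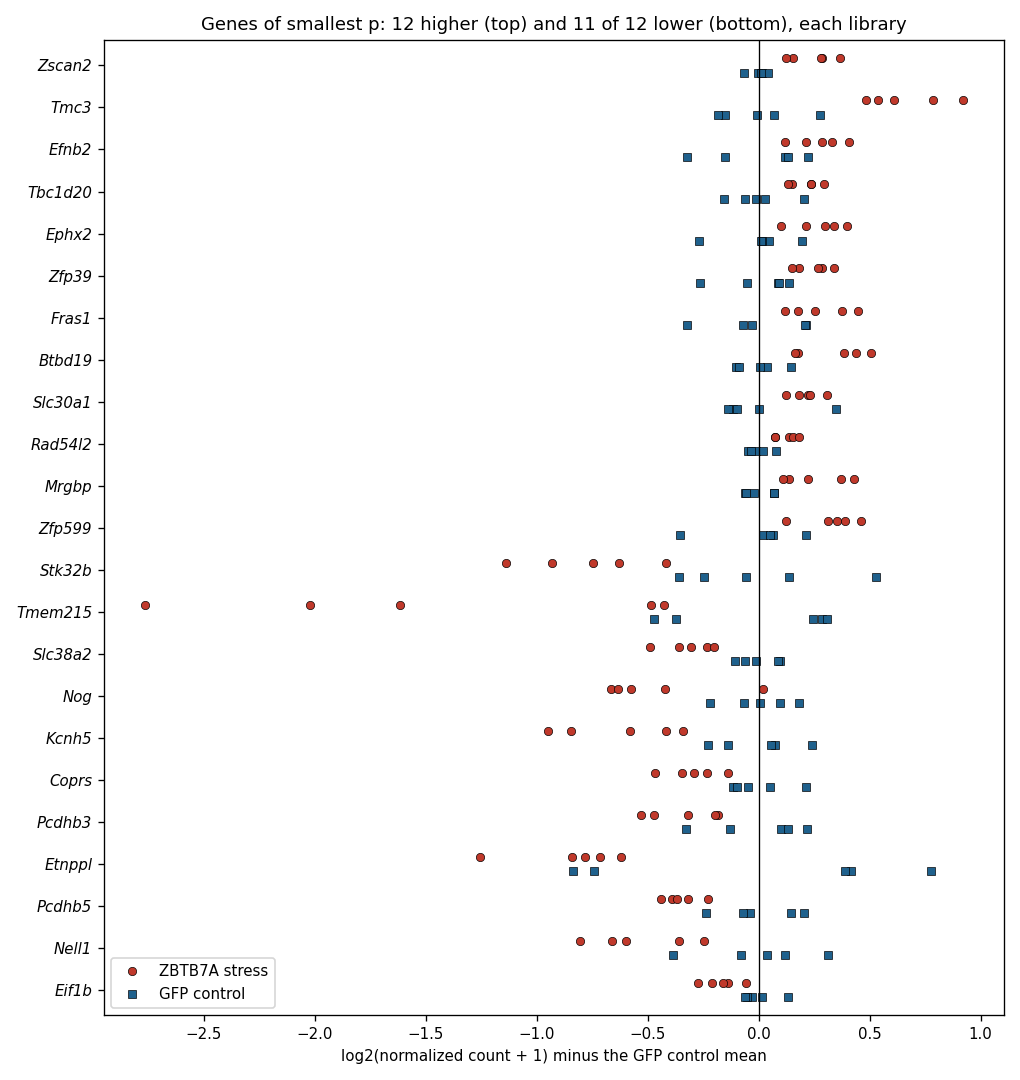
For the 12 higher genes of smallest p and 11 of the 12 lower ones (Ttr is in the plot of choroid plexus genes), the log2 value of every ZBTB7A stress library (circles) and GFP control library (squares), minus the GFP control mean of that gene. Circles and squares separate fully in 9 of the 23 genes, which the choice by this contrast favours, beside 0.415% of all tested genes. The distance between the group means is at most 0.67 on the log2 scale in all genes but Stk32b, Tmem215 and Etnppl.

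For 11 of the 12 higher genes and 11 of the 12 lower genes, both single-factor group means lay between those of ZBTB7A stress and GFP control, as they did for 11.2% of all tested genes. Choosing genes by the distance between the outer groups favours this order, so it is given as a description only. Efnb2 shows it, with 1933 ± 148 in ZBTB7A stress, 1824 ± 168 in ZBTB7A control, 1656 ± 78.0 in GFP stress and 1613 ± 245 in GFP control. Kcnh5 does so downward, with 319.6 ± 57.6 in ZBTB7A stress, 442 ± 72.2 in ZBTB7A control, 425 ± 125 in GFP stress and 491 ± 63.5 in GFP control. In the limma interaction, 1 of these 24 genes, Pcdhb5, had an unadjusted p under 0.05 (0.0480), beside 7.42% of all tested genes, and none passed the adjusted threshold.

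Choroid plexus and ependymal genes, which mark the cells that make cerebrospinal fluid and line the ventricles rather than cortex, lay farthest below 0 among 33 gene lists. Of 14 members tested, 13 lay below 0, the median log2 fold change was -0.72, and 4 reached an unadjusted p under 0.05, all lower, beside 0.995% of all tested genes. None passed in limma, and Ttr passed in DESeq2. Folr1 was chosen after its values were seen.

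Ttr had 27.1, 9.89, 12.9, 4.45 and 6.25 normalized counts in ZBTB7A stress 7, 9, 17, 25 and 26, against 7567, 194, 4890, 844 and 241 in GFP control 1, 2, 10, 11 and 19. Every GFP control library lay above every ZBTB7A stress library, with GFP control 1 and 10 far above the other 3. The log2 difference was -6.61 ± 1.30 (SE), a fold of 0.0102 (95% interval 0.00158 to 0.0664), with an exact two-sided permutation p of 0.00794, the smallest these group sizes allow. Any gene whose groups do not overlap has that permutation p, and Ttr was chosen by this contrast, so it is a description. Its adjusted p was 0.721 in limma, 0.676 in edgeR and 3.13e-06 in DESeq2. The difference was -5.91 to -7.23 with 1 library left out, -6.12, -7.20 and -5.27 within the number runs, and -4.95 without GFP control 1 and 10. ZBTB7A control averaged 177 ± 163 and GFP stress 130.1 ± 235, with single libraries from 3.09 to 655, and the limma interaction had an unadjusted p of 0.278. The median was 14.1 in GFP stress, 9.89 in ZBTB7A stress and 162 in ZBTB7A control. Against GFP control, the log2 difference was -5.37 ± 1.17 (SE) for GFP stress and -3.18 ± 1.30 for ZBTB7A control. ZBTB7A stress against GFP stress gave -1.23 ± 1.17, so low values were not particular to ZBTB7A stress.

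Kcnj13, a potassium channel of the choroid epithelium, had 6.01, 3.30, 10.1, 16.0 and 3.65 normalized counts in ZBTB7A stress, against 71.2, 9.68, 46.6, 22.4 and 28.2 in GFP control. Only GFP control 2 lay inside the ZBTB7A stress range. Sostdc1, a secreted antagonist of BMP and Wnt signals, had 11.03, 18.1, 7.35, 8.00 and 4.69 in ZBTB7A stress, against 81.2, 18.6, 48.0, 17.01 and 14.1 in GFP control. The overlap came from ZBTB7A stress 9 at 18.1. Folr1, a folate receptor of the choroid plexus, had 11.5, 21.4, 15.6, 5.33 and 3.13 in ZBTB7A stress, against 88.8, 13.7, 64.0, 15.5 and 11.3 in GFP control, with 3 GFP control libraries inside the ZBTB7A stress range. The log2 differences were -1.98 ± 0.67, -1.55 ± 0.50 and -1.43 ± 0.62 (SE) for Kcnj13, Sostdc1 and Folr1. Aqp1, a water channel that blood vessels also express, was the only member above 0, at 81.6 ± 58.1 in ZBTB7A stress and 71.1 ± 52.9 in GFP control.

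**Figure D3:**
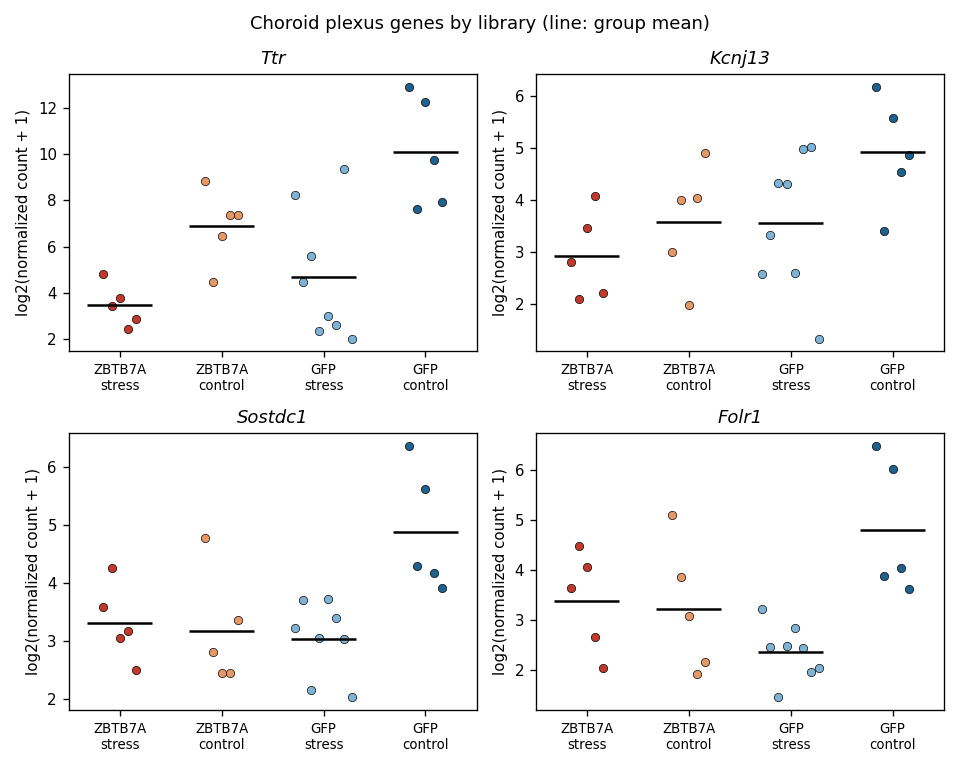
Log2 of the normalized count plus 1 for Ttr, Kcnj13, Sostdc1 and Folr1 in each library of the 4 groups, with a line at the group mean. GFP control 1 and 10 are the 2 highest GFP control libraries for all 4 genes, GFP control has the highest mean of the 4 groups for each, and ZBTB7A stress and GFP control separate fully for Ttr only.

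Apart from Ttr, the genes printed with their values by library had low counts. The list level stood at 0.43, 0.80, 0.23, -0.40 and -0.62 in ZBTB7A stress 7, 9, 17, 25 and 26, against 2.75, 1.08, 2.14, -0.10 and 0.52 in GFP control 1, 2, 10, 11 and 19. GFP control 1 and 10 lay above all other libraries of the series, GFP control 2 lay just above ZBTB7A stress, and GFP control 11 and 19 lay inside its range. All 15 listed genes were found in the table with none at 0 in any of the 10 libraries, and their summed normalized counts ran from 716 to 1765 in ZBTB7A stress and from 1202 to 10529.7 in GFP control. ZBTB7A control had a level of -0.04 ± 0.98 and GFP stress of -0.83 ± 0.60, so GFP control, at 1.28 ± 1.16, was the highest of the 4 groups and ZBTB7A stress stood at 0.08 ± 0.59. Without GFP control 1 and 10, an alternative chosen after seeing the data, the list's median log2 fold change was -0.04, and it was -0.40 without GFP control 1 alone and -1.14 without GFP control 11 alone. The median was 0.47 with 3 tissue levels as covariates, of which the choroid level is one. Without GFP control 1 and 10, Kcnj13, Sostdc1 and Folr1 stood at -1.34, -0.81 and -0.47. In the interaction, Sostdc1 reached an unadjusted limma p of 0.00723 and Folr1 of 0.00467. The part of these genes in the other differences was not tested. The number of genes at an unadjusted p under 0.05 was 487 without GFP control 1 and 10, and 2185 with the choroid level as a covariate, against 333 in the main fit of all 23 libraries.

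Striatal medium spiny neuron genes were chosen to mark a neighbouring region, but the list shares a member with the inhibitory neuron list, so it is not exclusive of cortex. They lay above 0 in 19 of 20 members, with a median of 0.48 and no member at an unadjusted p under 0.05. The list level was 1.31, 1.48, 0.12, 0.43 and 0.99 in ZBTB7A stress, against 0.14, 0.86, -0.42, 0.70 and 0.81 in GFP control. The groups overlapped, and 3 of the 5 ZBTB7A stress libraries stood above every GFP control library. The level difference came from the first number run (0.90), and it was -0.02 and -0.10 in the other runs. The median log2 fold change was 0.25 without GFP control 10, and 0.047 without GFP control 1 and 10. Penk, the precursor of the enkephalins, averaged 11652 ± 4831 in ZBTB7A stress and 7602 ± 3380.3 in GFP control. Gpr6, an orphan receptor of striatal neurons, was the member farthest above 0, at 703 ± 309.9 in ZBTB7A stress and 446 ± 199 in GFP control, and Isl1, a transcription factor, the only one below 0, at -0.05 ± 0.99 (log2, SE). The summed counts of the 20 genes ran from 66256 to 162786 in ZBTB7A stress and from 46582 to 112430 in GFP control, with none at 0. In GFP stress they ran from 19532 to 95706, and the median log2 fold change was 1.64 for ZBTB7A stress against GFP stress and -1.18 for GFP stress against GFP control.

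Neuronal genes of the cortex itself stood near 0. All 20 excitatory neuron genes were above 0 in each of the 10 libraries, with summed normalized counts from 160606 to 212572 in ZBTB7A stress and from 146145 to 254363 in GFP control. Of 20 excitatory neuron genes, 6 lay above 0 with a median of -0.07 and none at an unadjusted p under 0.05. Slc17a6, a vesicular glutamate transporter used mainly outside the cortex, was the farthest below 0. GFP control 1 stood at 1345 normalized counts while the other 9 libraries lay between 185 and 330.5. Foxp2, a transcription factor of deep cortical layers and of striatum, was the farthest above 0, at 963 ± 266 in ZBTB7A stress and 739 ± 67.9 in GFP control. Of 21 inhibitory neuron genes, 9 lay above 0 with a median of -0.01. Crh, corticotropin-releasing hormone, was the only one at an unadjusted p under 0.05. It had 57.1, 49.4, 84.5, 124 and 52.6 normalized counts in ZBTB7A stress, against 128, 92.0, 93.3, 145 and 81.8 in GFP control. The groups overlapped, with 3 ZBTB7A stress libraries below all GFP control libraries. The log2 difference was -0.61 ± 0.28 (SE), with an exact permutation p = 0.0635. It ran from -1.02 in number run 1 to -0.02 in number run 3.

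Synaptic genes gave little difference. Of 26 genes of vesicle release, 6 lay above 0 with a median of -0.04. Vamp1, a vesicle SNARE of fast-firing neurons, had 2067, 2185, 2902, 3109.9 and 1884 normalized counts in ZBTB7A stress, against 3501, 2815, 3273, 3181 and 3202 in GFP control. ZBTB7A stress 17 and 25 reached the GFP control range and the other 3 lay below it. Among 35 glutamate and GABA receptor subunits the median was -0.04 with 15 above 0. Among 31 potassium channels the median was -0.06, and Kcnd2, which carries A-type current in dendrites, averaged 2459 ± 161 in ZBTB7A stress and 2226 ± 240.1 in GFP control. The unadjusted limma p was 0.0336 for Vamp1 and 0.0461 for Kcnd2, and neither passed.

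**Figure D4:**
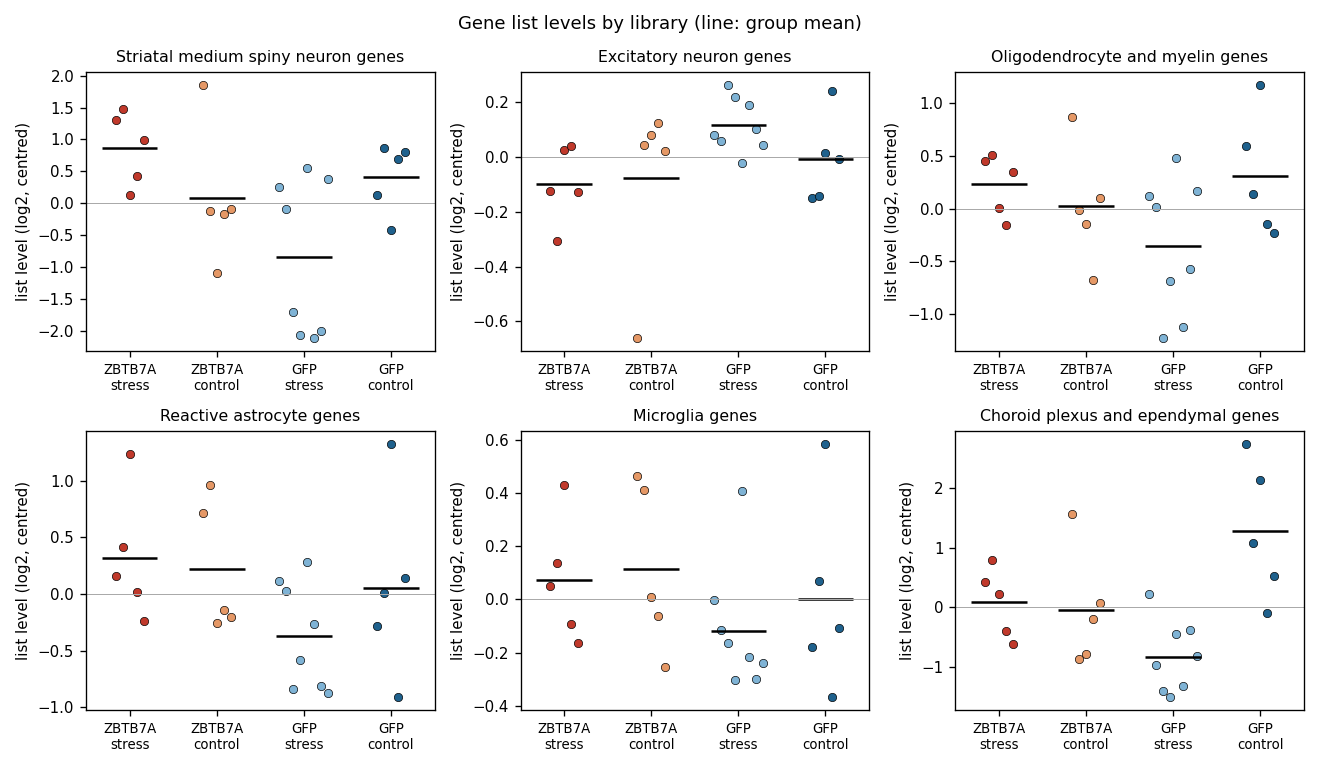
Level of 6 gene lists in each library of the 4 groups, as the mean of the members' log2 values centred over all 23 libraries, with a line at the group mean. The means are 0.87 in ZBTB7A stress and 0.42 in GFP control for striatal genes and 0.08 in ZBTB7A stress and 1.28 in GFP control for choroid plexus genes, and the outer groups overlap in every panel.

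Glial and immune lists were close to level. Of 24 microglia genes, 21 lay above 0, but the median was 0.09 and no member reached an unadjusted p under 0.05. Their list level was 0.07 ± 0.23 in ZBTB7A stress and 0.00 ± 0.36 in GFP control. Of 18 microglial activation genes tested, 14 lay above 0 with a median of 0.08, and Ch25h, which makes 25-hydroxycholesterol, was the farthest above 0. Its normalized counts were 15.5, 21.4, 25.7, 24 and 70.4 in ZBTB7A stress, against 11.96, 12.9, 18.7, 6.96 and 5.64 in GFP control. ZBTB7A stress 7 alone lay inside the GFP control range, and the log2 difference was 1.31 ± 0.39 (SE), or 0.98 without ZBTB7A stress 26. Of 25 NF-kB pathway genes tested, 10 lay above 0 with a median of -0.03, and of 25 interferon and antigen presentation genes 8 did, with a median of -0.04. Cxcl10, a chemokine, averaged 31.1 ± 26.5 in ZBTB7A stress and 16.997 ± 14.6 in GFP control, with 1 library of 78.05 in ZBTB7A stress. Among 19 complement genes the median was 0.00 with 9 above 0.

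Myelin genes lay slightly below 0 as a list, with 3 of 24 above 0 and a median of -0.07. Enpp2, autotaxin, which oligodendrocytes share with the choroid plexus, had 4702, 5189, 4715, 4438 and 4570.3 normalized counts in ZBTB7A stress, against 10086, 4839, 10322, 4392 and 4686 in GFP control. Its difference of -0.43 ± 0.18 (log2, SE; exact permutation p = 0.294) rested on GFP control 1 and 10, the libraries highest in the choroid list, and was 0.02 without both. The myelin list level was 0.23 ± 0.29 in ZBTB7A stress and 0.31 ± 0.58 in GFP control. Of 16 oligodendrocyte precursor genes, 4 lay above 0 (median -0.03), of 22 endothelial and mural genes 16 (median 0.11), of 16 meningeal fibroblast genes 4 (median -0.20), of 17 olfactory bulb and neuroblast genes 13 (median 0.17) and of 4 blood genes 3 (median 0.24). None of these 5 lists had a member at an unadjusted p under 0.05.

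Of 27 chaperone and unfolded protein response genes tested, 5 reached an unadjusted p under 0.05, 2 higher and 3 lower, beside 2.03% of all tested genes, and none passed. Hspa5 encodes BiP, the main chaperone of the endoplasmic reticulum. It had 4388, 4472, 4488, 4492 and 4486 normalized counts in ZBTB7A stress, against 5562, 4894, 5145, 5083 and 4859.6 in GFP control. The groups did not overlap, and the ZBTB7A stress values lay close together. The log2 difference was -0.19 ± 0.07 (SE), a fold of 0.875 (95% interval 0.794 to 0.965). Herpud1, which helps remove misfolded proteins, averaged 1158 ± 80.5 in ZBTB7A stress and 1272 ± 67.4 in GFP control, and Hspa1b, an inducible chaperone of the cytosol, averaged 75.2 ± 11.6 in ZBTB7A stress and 102 ± 18.0 in GFP control. Ddit3, the transcription factor CHOP, stood the other way at 558 ± 18.7 in ZBTB7A stress and 496 ± 44.4 in GFP control, as did Trib3, a pseudokinase of the same pathway, at 42.2 ± 11.01 in ZBTB7A stress and 24.7 ± 9.94 in GFP control. The list median was -0.05.

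Genes of the stress hormone response and of neuronal activity were listed because ZBTB7A stress mice had met a stressor. Of 23 glucocorticoid receptor and target genes, 7 lay above 0 with a median of -0.09. Tsc22d3, a glucocorticoid-induced leucine zipper protein, had 1026, 1069, 1072, 1147 and 1049 normalized counts in ZBTB7A stress, against 1512, 1817, 1162, 1019 and 1118 in GFP control. GFP control 1 and 2 stood apart from the rest, and the difference was -0.66 on the log2 scale in their number run and -0.02 and -0.03 in the others. Among 24 immediate early genes the median was 0.01. Btg2, an antiproliferative early response gene, was the one at an unadjusted p under 0.05, at 590.1 ± 76.0 in ZBTB7A stress and 448 ± 178 in GFP control. ZBTB7A control at 670.0 ± 188 and GFP stress at 623 ± 109 stood above ZBTB7A stress, and the limma interaction had an unadjusted p of 0.0220.

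Among 21 neuropeptide genes 10 lay above 0 (median -0.08), and Gal, galanin, was the farthest below 0 at 12.03 ± 11.03 in ZBTB7A stress and 54.8 ± 62.2 in GFP control, where GFP control 1 and 11 had 139 and 104. Among 28 monoamine and opioid receptors 14 lay above 0 (median -0.01). Drd3, a dopamine receptor, was the farthest above 0 at 54.7 ± 24.8 in ZBTB7A stress and 26.7 ± 16.1 in GFP control. Of 22 genes of connexins and the glutamate cycle, 7 lay above 0 (median -0.07). The 2 at an unadjusted p under 0.05 were Slc38a2 and Gjb6, both lower, beside 0.995% of all tested genes. Of 30 genes of the ZBTB family and its corepressors, none reached an unadjusted p under 0.05 and the median was 0.00.

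The remaining lists had no member that passed. Medians were -0.02 for 40 oxidative phosphorylation genes, 0.02 for 45 cytosolic ribosomal protein genes, -0.04 for 24 cholesterol synthesis genes, 0.01 for 30 extracellular matrix and integrin genes, 0.01 for 35 axon guidance genes, with Efnb2 among them, and -0.04 for 19 clock genes. Over all 33 lists, 752 of 759 listed symbols were tested, and 21 of them reached an unadjusted p under 0.05, 7 higher and 14 lower (2.79%, beside 2.03% of all tested genes). The medians of 26 lists lay within 0.1 of 0.

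**Figure D5:**
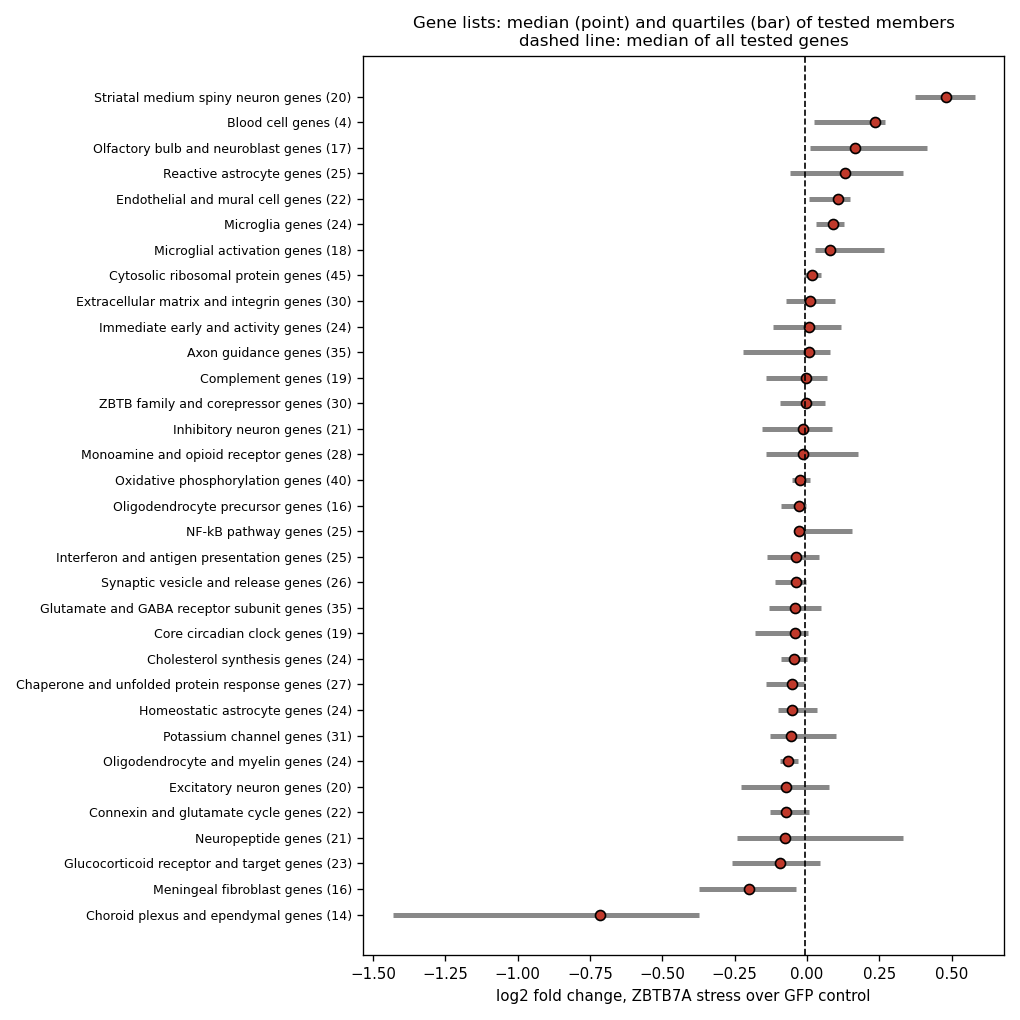
Median log2 fold change of ZBTB7A stress over GFP control (points) with the quartiles of the tested members (bars) for 33 gene lists, and the number tested in brackets. The dashed line is the median of all tested genes (-0.01), and the striatal list at 0.48 and the choroid plexus list at -0.72 lie farthest from it.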

How the data were processed

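Polyadenylated RNA of dissected OFC was sequenced in 23 libraries. The authors deposited 1 table of normalized counts, a signal made of reads over a size factor for each library. DESeq2 2.11.40.6, featureCounts 2.0.1 and HISAT2 2.1.0 are named in the submitters' processing notes, as are the builds mm10 and mm9 with no role, so no coordinates are given. The TruSeq RNA v2 kit, which does not mark strand, was used after Trizol and RNeasy Micro extraction, per the labels' protocols. Values carry no correction for gene length.

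Whole reads were recovered (12.5 to 51.9 M), since 100% of each library's values were multiples of 1 read within 0.02. From 27606 rows 428 repeated entries were removed, leaving 27178 genes, 958 of them without a symbol. Tests covered the 16385 genes that reached 10 in at least 5 libraries, on log2(value + 1), which understates the change of low genes. limma 3.58.1 in R 4.3.3 fitted the 4 group means with trended and robust empirical Bayes, so all 23 libraries share 1 estimate of the spread, and the contrast was ZBTB7A stress minus GFP control, two-sided, Benjamini-Hochberg adjusted over all tested genes at 0.05. Single genes also have an exact permutation test over the 252 splits of 10 libraries, whose smallest p is 0.00794. The recovered reads were also tested with DESeq2 1.42.0 and edgeR 4.0.16. Other alternatives were TMM scaling, adding 5 in place of 1, testing without a filter or with means from 50 up, fits of only the 2 groups, array weights, a non-robust fit, covariates for number run and tissue levels, an adjusted p under 0.1, and each library left out. The fits were tested on simulated data. Tables and plots used Python 3.11.15, pandas 2.3.3, numpy 2.4.6 and matplotlib 3.10.9.

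Named genes are Zbtb7a, Gfap, Slc1a2, Slc1a3, Glul, Aqp4, Serpina3n and Lcn2; the 12 higher and 12 lower genes of smallest limma p with a symbol and a mean of 50 or more; up to 3 members of each list at an unadjusted p under 0.05; and the farthest members of a described list. Some genes taken by this rule are not reported here. The comparison, its rule and the lists were chosen with earlier results of these data known, so lists are described by counts and medians without a test. The title numbers (1 to 9, 10 to 18 and 19 to 26) form 3 number runs of 8, 7 and 8 libraries, which are not a labelled batch. Run 2 has 1 ZBTB7A stress library and run 3 has 1 GFP control library.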

Additional observations from a re-analysis of the deposited data

Results flagged for a closer look

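In 10 of 182 checks of a group of 5 libraries, 1 library lay apart from the other 4 by more than Dixon's limit (a gap over 0.71 of the group's range). Chance gives about 1 in 20.

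Among genes given as normalized counts, Slc1a2 stood at 52536 in ZBTB7A stress 7, below 56650 to 58340 in the other 4 libraries of the group. Hspa5 stood at 4388 in the same library, below 4472 to 4492. Cxcl10 stood at 78.05 in ZBTB7A stress 17, above 14.54 to 23.45. In GFP control 1, Slc30a1 stood at 1055, above 753.5 to 830.4, and Slc17a6 at 1345, above 201.8 to 330.5. In GFP control 10, Kcnd2 stood at 1806, below 2276 to 2408, and Ddit3 at 574.3, above 471.3 to 489.

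Among list levels, the mean centred log2 value of the members, the NF-kB pathway list stood at 0.4723 in ZBTB7A stress 17, above -0.06746 to 0.06594 in the other 4. The extracellular matrix and integrin list stood at 0.3851 in the same library, above -0.0137 to 0.0801. The inhibitory neuron list stood at -0.2051 in GFP control 10, below 0.09589 to 0.1893.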

How the results depend on the processing

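No paired analysis was possible because no title number is shared between the groups. Genes past the adjusted threshold numbered 0 in limma under every alternative tried and in edgeR, and 1 in DESeq2 (Ttr), where 1 list then held a passing member. Genes at an unadjusted p under 0.05 numbered 333 and came to 619 with no filter on low values, 782 with array weights and 880 with 3 tissue levels as covariates, and to 2185 with the choroid level alone, which was chosen after seeing the data; with 1 library left out they ran from 232 (without ZBTB7A stress 26) to 580 (without GFP control 1). Genes whose groups do not overlap numbered 68, and 104 (without ZBTB7A stress 26) to 188 (without GFP control 11), where fewer values make separation easier. The log2 difference of Zbtb7a was 0.26 in number run 1, 0.025 with array weights and 0.018 with number run as a covariate, and -0.10 (without GFP control 1) to 0.055 (without GFP control 11). With 1 library left out, differences ran from -0.058 to 0.59 for Gfap, -0.011 to 0.066 for Slc1a2, -0.073 to 0.070 for Slc1a3, -0.10 to 0.012 for Glul, -0.31 to 0.29 for Isl1 and -0.22 to 0.62 for Aqp1. The sign also turned with array weights for Slc1a3 (-0.041), with 3 tissue levels for Aqp4 (0.087), Enpp2 (0.062) and Folr1 (0.10), with the choroid level for Aqp4 (0.023) and Isl1 (0.94), for Isl1 in edgeR (0.076) and DESeq2 (0.093), and for Enpp2 without GFP control 1 and 10 (0.025), also chosen after seeing the data. The cause was not tested. Of 58 genes named, 48 had the same direction under all 24 settings and 10 reversed under one or more. Of the list medians, 583 values moved by less than the spread between libraries and 11 by more, among them the choroid plexus list, whose median of -0.72 turned to 0.47 with 3 tissue levels and 0.40 with the choroid level as covariates, both built from that list. Genes of a few counts, such as Kcnj13, are limited by depth.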
